A study of Homo sapiens with 18 samples.

Results

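Enzastaurin-treated U251 cells were followed from 10 h to 18 h of exposure, and the 3 arrays labelled enzastaurin 18 h were set against the 3 labelled enzastaurin 10 h. These 6 arrays were chosen by treatment and time alone, out of 18 in the series. U251 is an established human glioblastoma line, and all cells were grown in RPMI medium with serum. The remaining groups were enzastaurin 4 h, DMSO 18 h, DMSO 10 h and DMSO 4 h, with 3 arrays each, and DMSO is the solvent in which such inhibitors are given. The same 2 times in DMSO cells served as a measure of what time in culture does without the inhibitor. The labels give no dose, the series holds 1 line, and they do not say whether the arrays of a group came from separate cultures, so the p-values measure the spread between these arrays only.

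Enzastaurin blocks the ATP site of kinases and was designed to act on the beta form of protein kinase C, and the title of the series places it among treatments that inhibit GSK3 in glioma. GSK3 is a serine/threonine kinase that, in a complex with AXIN proteins, APC and casein kinase, marks beta-catenin for degradation. When GSK3 is inactive, beta-catenin accumulates, enters the nucleus and activates genes with TCF/LEF proteins, among them AXIN2, NKD1, ZNRF3 and NOTUM, whose products feed back on the pathway. GSK3 also phosphorylates glycogen synthase, MYC, cyclin D1 and SREBP proteins, the transcription factors of sterol and fatty acid synthesis.

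Total RNA was measured on Affymetrix HG-U133 Plus 2.0 arrays, and the values are linear intensities that had been scaled to a common level on each array. The trimmed mean intensity lay between 498.2 and 498.5 on all 18 arrays, and the median between 99.2 and 125.2 on the 6 enzastaurin arrays compared. Arrays of 1 group correlated with each other at r between 0.977 and 0.986. Changes are differences of log2(intensity + 16), so that 1 is a doubling and the change of dim genes is understated. A gene was tested where its mean level exceeded the median of all probe sets, an intensity of 102, which left 12376 of 19775 genes. A leave-one-out fit drops 1 of the arrays compared. The mean over probe sets takes in all probe sets of a gene, also those below this level filter. A gene is called where its Benjamini-Hochberg adjusted p in limma was under 0.05. Errors after ± are standard errors of that fit.

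The glial identity of the line was only partly visible. VIM, the intermediate filament of astroglial and mesenchymal cells, lay between 24370.0 and 35640.4 at 18 h and between 28806 and 35647 at 10 h in enzastaurin cells, and CD44, NES, SOX2, SOX9, EGFR, FABP7 and SLC1A3 were all above the level filter. The defining astrocyte marker GFAP was not, with 13.4 to 101.2 at 18 h and 8.6 to 47.8 at 10 h, nor were S100B and CHI3L1. Of 15 markers of other cell types on the array, 8 passed the filter, and their summed level over all 15 was 8609.3 to 9113.3 at 18 h against 7812.8 to 9197.8 at 10 h, most of it KRT18. PTPRC, CDH5, VWF, EPCAM, ALB, AIF1 and RBFOX3 were below the filter. SYT1, a synaptic vesicle protein, was the 1 member called, with 760.0, 717 and 854 at 18 h against 476, 498 and 450.2 at 10 h (log2 change 0.69 ± 0.12, adjusted p = 0.0006). Over all genes tested, 11.1% were called. In RNA from bulk cells, fewer cells of a kind and less RNA per cell cannot be told apart.

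Between 10 and 18 h, 1369 of the 12376 genes changed in enzastaurin cells, or 11.1%. Of these, 671 rose (5.42% of the genes tested) and 698 fell (5.64%), and 80 changed at least 2-fold, 53 of them upward. The 3 arrays of one time lay beyond the 3 of the other for 3287 genes (26.6%), 1742 of them higher at 18 h and 1545 lower. In DMSO cells over the same interval 658 genes were called (5.32%), with 250 higher (2.02%) and 408 lower (3.30%). The difference between the treatments in this change, the interaction term of the same fit, was called for 276 genes (2.23%), 164 with a more positive change in enzastaurin cells (1.33%) and 112 with a more negative one (0.905%).

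The near-equal split into rises and falls held with quantile normalization (746 higher and 707 lower) but not with another scaling. When each array's median was subtracted, every gene's change moved by -0.13 and 1202 genes were called, 234 higher and 968 lower. In DMSO cells the shift was -0.11, with 437 calls, 62 higher and 375 lower. The difference moved by only -0.02, but its calls dropped to 65, 35 positive and 30 negative. The changes below are therefore read against the median of all genes tested, which was 0.03 with the authors' scaling and -0.10 with medians subtracted. Leaving out enzastaurin 18 h replicate 3 gave 896 calls and leaving out enzastaurin 10 h replicate 2 gave 903.

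Of the 671 genes that rose, 86 also rose with DMSO (12.8% of these and 34.4% of the 250 that rose with DMSO), 576 were not called there and 9 fell. Their median change was 0.48 with enzastaurin against 0.12 with DMSO. Of the 698 that fell, 153 also fell with DMSO (21.9% of these and 37.5% of the 408), 536 were not called and 9 rose. Their medians were -0.41 with enzastaurin and -0.17 with DMSO. A missing call in DMSO is not itself a difference: the interaction term was called for 120 of the 671 and 80 of the 698. Across the 12376 genes, which are not independent of each other, the changes of both treatments correlated at 0.282 (Pearson) and 0.317 (Spearman).

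**Figure D1:**
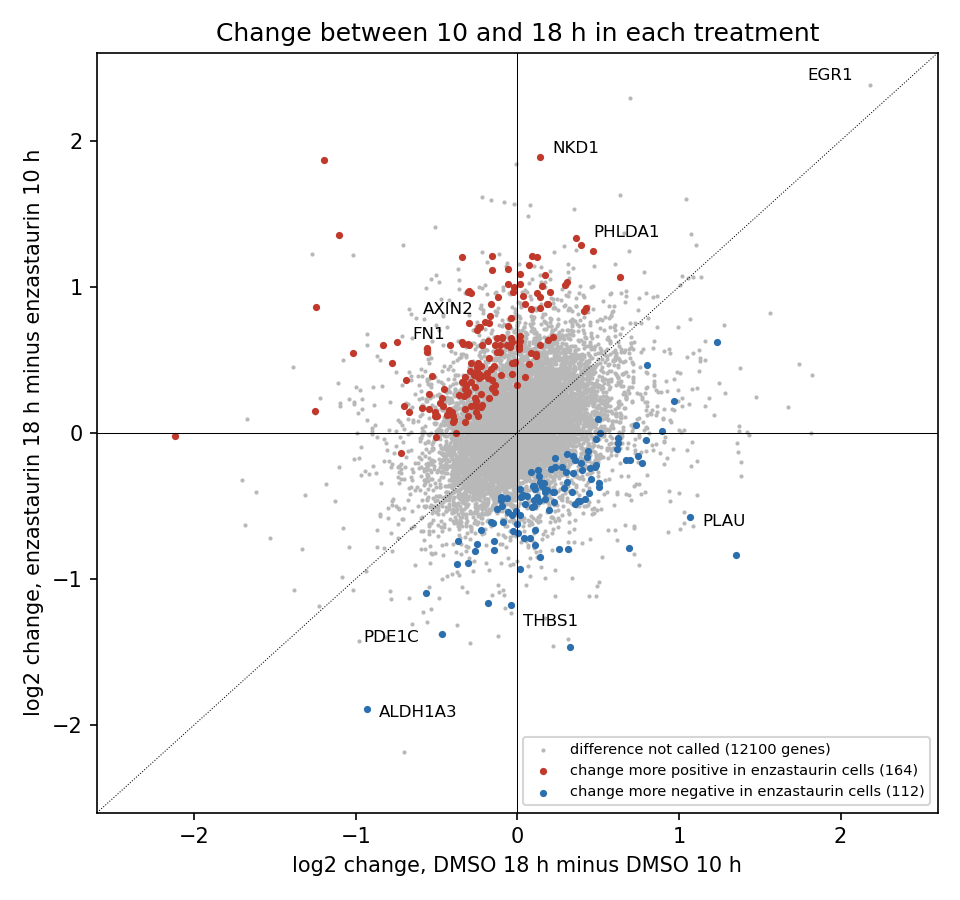
Each point is 1 of 12376 genes, with its log2 change from 10 to 18 h in DMSO cells on the x axis and in enzastaurin cells on the y axis, and the dotted line marks equal change. Red points are the 164 genes with a more positive change in enzastaurin cells by the interaction test and blue points the 112 with a more negative one, with EGR1 near the line and NKD1, THBS1 and PLAU far from it.

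The 18 genes called upward in one treatment and downward in the other all had a called difference, and for 17 the arrays of the 2 times did not overlap in either treatment. Among these, PLAU, the urokinase protease that activates plasminogen outside the cell, had 1475, 1283 and 1579.6 at 18 h against 2291, 2144 and 2054 at 10 h in enzastaurin cells. In DMSO cells it had 4543, 5105 and 4988 at 18 h against 2228, 2284 and 2439 at 10 h. Its arrays started together at 10 h and parted in opposite directions, with a log2 change of -0.58 ± 0.08 with enzastaurin against 1.07 ± 0.08 with DMSO (difference -1.65 ± 0.11, adjusted p = 4.68e-08). PTX3, a secreted pattern recognition protein, went the other way, at 0.62 ± 0.11 with enzastaurin and -0.75 ± 0.11 with DMSO. FN1, the matrix protein fibronectin, likewise changed by 0.61 ± 0.10 with enzastaurin and -0.34 ± 0.10 with DMSO, and CCND1, the G1 cyclin D1, by -0.48 ± 0.06 and 0.23 ± 0.06. The other members are IER5, SHISA2, FAM222A, CPA4, CD70, DIO2, FHL2, KLHL23, LIMCH1, NEK6, NLE1, PITHD1, C21orf91 and C9orf40, named here after their values were seen. The DMSO calls of FN1 and CCND1 were each lost in 5 of 6 leave-one-out fits, with adjusted p reaching 0.229 and 0.171, those of IER5 and CPA4 in 4 and 6 of them (at most 0.103 and 0.127), and the enzastaurin call of FAM222A in 5 (at most 0.119).

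EGR1, an immediate early zinc finger transcription factor, showed the largest rise. It had 1996, 1983 and 1910.5 at 18 h against 298, 409 and 392.3 at 10 h in enzastaurin cells (log2 change 2.38 ± 0.16, adjusted p = 1.16e-08). DMSO cells had 1111, 979 and 1049.9 at 18 h against 174, 252 and 237 at 10 h, a change of 2.18 ± 0.16, adjusted p = 5.88e-08. EGR1 thus rose in DMSO cells as well, and the difference between treatments, 0.20 ± 0.23, did not pass the test (adjusted p = 0.788).

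NKD1, an antagonist of Dishevelled and a beta-catenin target, had the third largest rise. It had 612, 634 and 709 in enzastaurin cells at 18 h against 139, 166 and 192 at 10 h, and 149, 88.4 and 134 in DMSO cells at 18 h against 97.2, 121 and 108 at 10 h. The 18 h enzastaurin arrays stood more than 3-fold above every other array of the 4 groups. The change was 1.89 ± 0.24, adjusted p = 3.13e-05, and its difference from DMSO was 1.74 ± 0.35, adjusted p = 0.00825. The other genes among the 12 named rises were dim. PIDD1, MMP28, H1-2, ZNF687, EFNB3, ITPKA, RNF122, ANKRD53, LYZL6 and HSD17B1 had changes between 1.49 and 2.30, and for PIDD1 the 18 h arrays themselves spread over 93.4, 385 and 577. Of the 80 genes past 2-fold, 47 had a brighter group mean under 500. PIDD1, EFNB3, ITPKA, ANKRD53, LYZL6 and HSD17B1 each lost their call in 4 or 5 of 6 leave-one-out fits, with adjusted p reaching 0.202.

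The 12 rises and 12 falls named here are the largest among called genes with a characterized symbol whose arrays did not overlap between the times, which leaves out PRKCD and HSPG2 (overlap) and uncharacterized transcripts. Among the falls, ALDH1A3 had the highest levels. The enzyme makes retinoic acid from retinal and marks mesenchymal glioma cells. It had 1156, 1238 and 908 in enzastaurin cells at 18 h against 3974, 3955 and 4329.9 at 10 h, and 1474, 1527 and 1389.6 in DMSO cells at 18 h against 2863, 2913 and 2646 at 10 h. It fell over time with both, the log2 change being -1.89 ± 0.09 with enzastaurin and -0.93 ± 0.09 with DMSO, and the difference was -0.96 ± 0.12, adjusted p = 0.00021. PDE1C, a calmodulin-dependent phosphodiesterase, had 809.6, 796 and 726 at 18 h against 2086, 1830.4 and 2226 at 10 h with enzastaurin (-1.38 ± 0.08, adjusted p = 2.92e-09), and its change was -0.46 ± 0.08 with DMSO. All 5 other PDE1C probe sets above the level filter changed by -0.97 to -0.64 with enzastaurin and lay above 0 with DMSO, and the mean over probe sets changed by 0.13 with DMSO. IL11, a cytokine of the IL-6 family, had 687, 581 and 509 at 18 h against 1373, 1738 and 1634 at 10 h (-1.40 ± 0.17, adjusted p = 1.81e-05). With DMSO its change was -0.82 ± 0.17, and the difference of -0.58 ± 0.24 was not called (adjusted p = 0.284). PSMB8, an immunoproteasome subunit, had the largest fall, -2.19 ± 0.30, with 57.9, 210.2 and 55.3 at 18 h against 556, 391.7 and 465 at 10 h. ELFN2, MARCHF4, FSD1, ARHGAP22, SERPINA5, NPFFR1, MARCHF10 and DYSF, all with means under 500 at both times, completed the 12 named falls, with changes between -1.46 and -1.21. DYSF, FSD1, ARHGAP22, SERPINA5 and NPFFR1 lost their calls in 1 to 4 of 6 leave-one-out fits, with adjusted p reaching 0.173, and the other probe set of ELFN2 above the level filter changed by 0.08. With the mean over probe sets MMP28, ELFN2 and MARCHF10 were no longer called. The other MARCHF10 probe set lay below the level filter, at a mean intensity of 22.5.

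Of the 80 genes, 27 had a brighter group mean of at least 1000, 17 of them higher at 18 h and 10 lower. From these, 6 genes were picked here after their values were seen. SYTL2, a vesicle transport protein, changed by 1.34 ± 0.14, adjusted p = 3.79e-06. IL17RD, a feedback inhibitor of FGF and ERK signalling, changed by 1.24 ± 0.09, adjusted p = 1.28e-08. RHOB, a small GTPase, had 6863, 6406 and 7867 at 18 h against 3039, 3290.1 and 2822 at 10 h, with no overlap between the times and a change of 1.201 ± 0.12, adjusted p = 1.53e-06. The transcription factors RUNX2 and SOX4 rose by 1.08 ± 0.09 and 1.03 ± 0.08, and TSC22D1, a leucine zipper protein induced by TGF-beta, by 1.02 ± 0.08 with 12418, 11756 and 13002 at 18 h against 6017, 6078 and 6222 at 10 h. In DMSO cells the same 6 changed by 0.36, 0.47, 0.12, 0.17, 0.30 and -0.06, in that order, and all 6 differences were called, the smallest 0.73 for SOX4. With the mean over all probe sets of a gene, RUNX2 and TSC22D1 were no longer called.

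Of 37 gene lists with 805 members, 658 members were tested. The highest list medians with enzastaurin were those of clustered histone genes (0.55), Wnt and beta-catenin targets (0.43), cholesterol synthesis (0.41) and immediate early genes (0.28), and the lowest those of extracellular matrix genes (-0.28), G2/M genes (-0.24) and the TXNIP list (-0.21). The lists overlap in some genes.

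**Figure D2:**
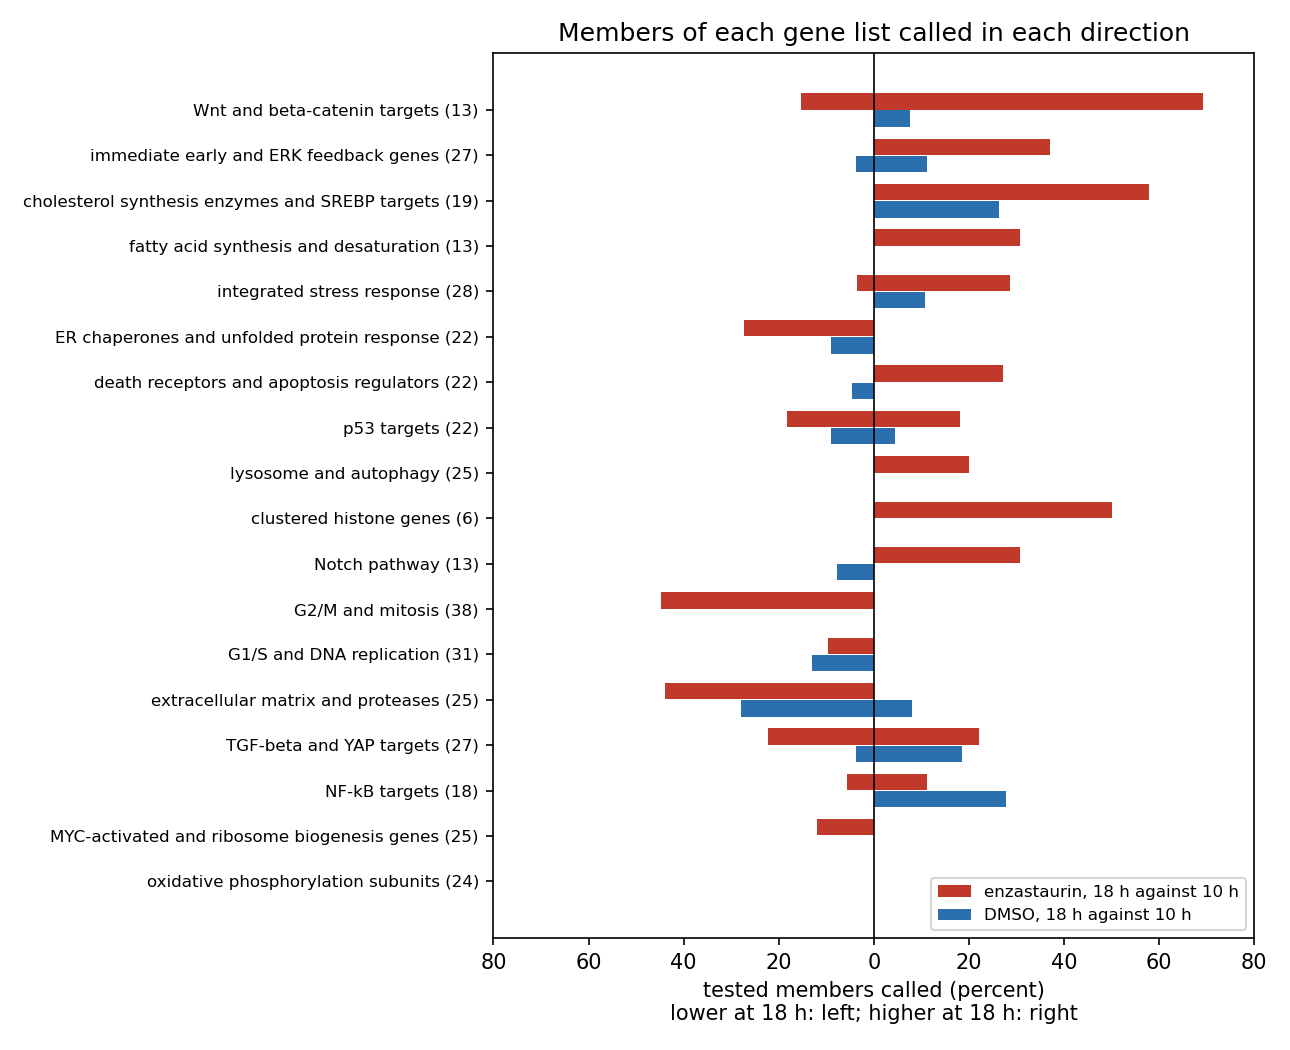
Bars give, for 18 gene lists with their number of tested members in brackets, the percent of members called higher at 18 h (to the right) and lower at 18 h (to the left), in red for enzastaurin and in blue for DMSO. All genes tested gave 5.42% higher and 5.64% lower with enzastaurin, and 2.02% and 3.30% with DMSO.

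Of 13 tested members of the list of Wnt and beta-catenin targets, out of 23 listed, 9 rose, 2 fell and 2 were not called, with a median change of 0.43 against 0.03 for all genes, where 5.42% of genes rose and 5.64% fell. In DMSO cells CCND1 was called higher, the list median was -0.17, and the difference between the treatments was called for 7 members upward and 1 downward. AXIN2, the scaffold of the destruction complex and the standard readout of the pathway, had 3325, 2928 and 3160.3 in enzastaurin cells at 18 h against 1609, 1743 and 1571 at 10 h. DMSO cells had 229.9, 139 and 186 at 18 h against 190.2, 178 and 230.4 at 10 h, so that the treatments were already far apart at 10 h and parted further. AXIN2 changed by 0.93 ± 0.13, adjusted p = 8.93e-05, against -0.12 ± 0.13 with DMSO.

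LEF1, the DNA-binding partner of beta-catenin, had 3372, 3027 and 3532 at 18 h against 1982, 2154 and 1858 at 10 h (0.72 ± 0.13, adjusted p = 0.000618). DKK1, a secreted inhibitor of the LRP co-receptors, had 4071, 3880.4 and 4372 at 18 h against 2072, 2180.1 and 2040.2 at 10 h with enzastaurin and 3781, 4254 and 4024 against 3745, 4117 and 4436 with DMSO. At 18 h the enzastaurin arrays overlapped the DMSO arrays, and at 10 h they lay below all of them. Its change was 0.96 ± 0.08, adjusted p = 2e-07. BAMBI, a decoy receptor for TGF-beta and BMP ligands, had 1508, 1425 and 1878 at 18 h against 771, 786 and 885 at 10 h, without overlap (0.96 ± 0.15, adjusted p = 0.000216). The ubiquitin ligase ZNRF3 and the receptor FZD7, which ZNRF3 removes from the membrane, changed by 0.38 ± 0.08 and 0.43 ± 0.09, NOTUM, a secreted Wnt deacylase, by 1.001 ± 0.26 and TCF7L2 by 0.29 ± 0.07. The 2 members that fell were CCND1 and CD44, with 3344, 2989 and 3327 for CCND1 at 18 h against 4404, 4447 and 4599.7 at 10 h. TNFRSF19 (0.24 ± 0.13) and TNIK (0.22 ± 0.08) did not pass. With array medians subtracted the list had 6 rises, and the calls of ZNRF3, FZD7 and TCF7L2 ended. NOTUM and CD44 lost theirs in 3 and 4 of 6 leave-one-out fits, with adjusted p reaching 0.0962 and 0.13, and a second CCND1 probe set changed by 0.05, so that CCND1 was not called with the mean over probe sets.

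**Figure D3:**
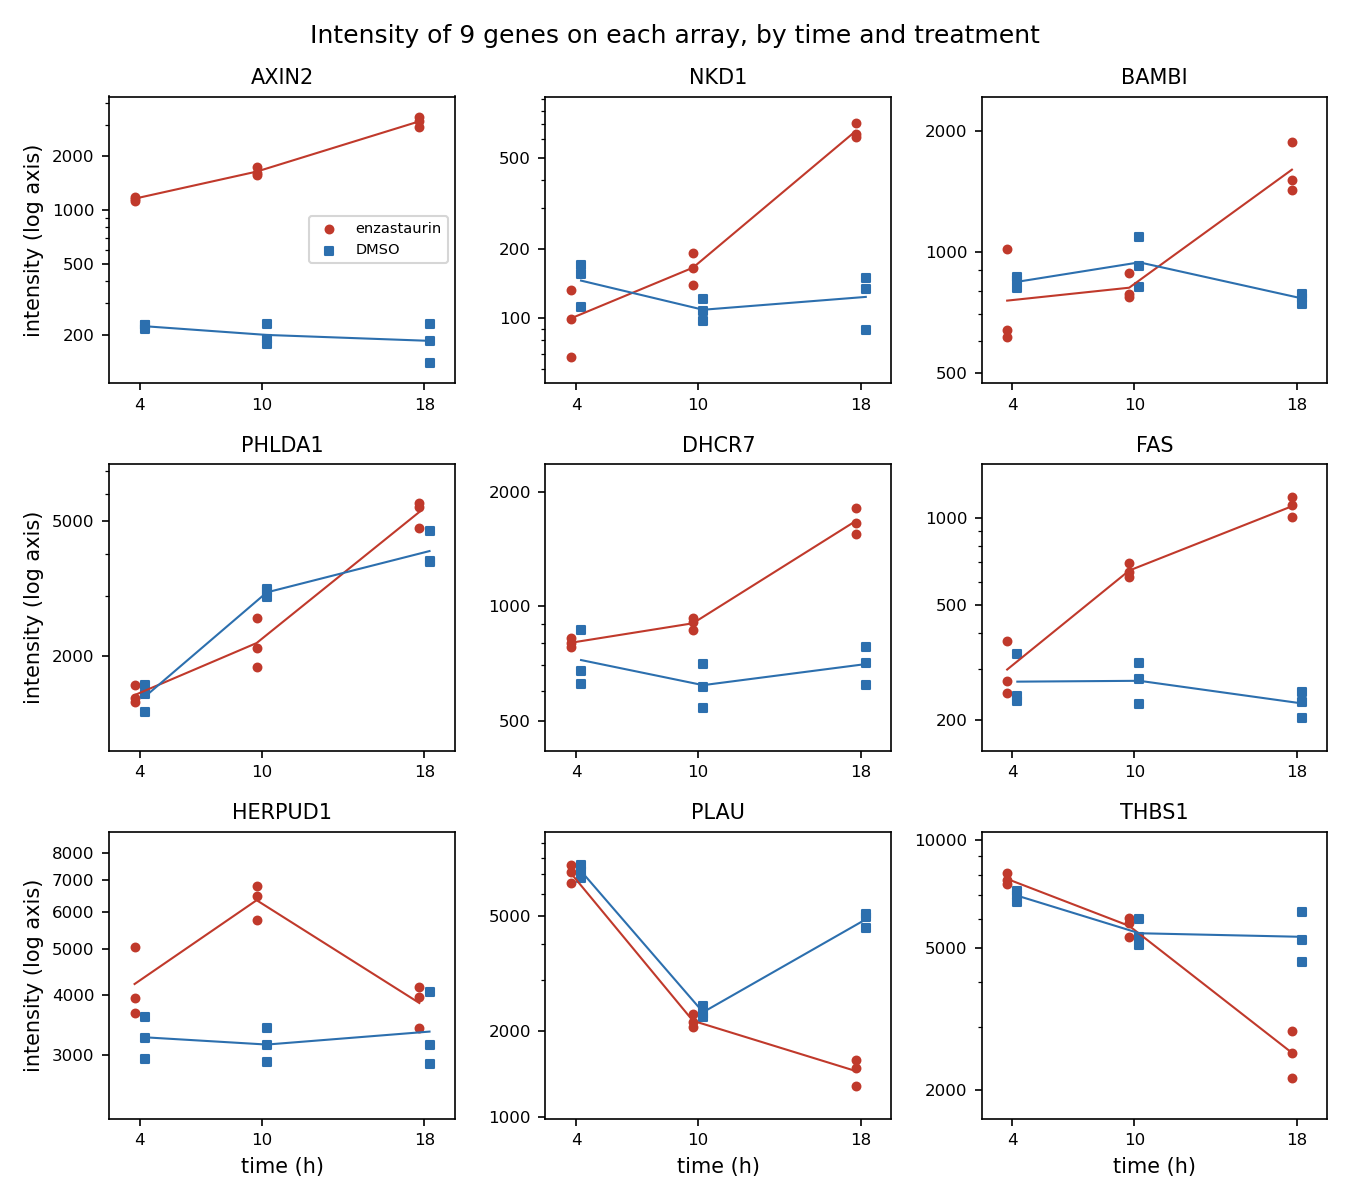
Intensity on a log axis of 9 genes on each of the 18 arrays at 4, 10 and 18 h, with enzastaurin in red and DMSO in blue, and lines through the group means. AXIN2, NKD1, BAMBI, PHLDA1, DHCR7 and FAS end higher at 18 h than at 10 h with enzastaurin, HERPUD1 and THBS1 end lower, and PLAU parts in opposite directions.

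Of 23 tested members of a list of destruction complex and drug target genes, DVL2 rose and PRKCD, a protein kinase C, fell, while 5.42% of all genes rose and 5.64% fell, so that the list stood near the background. DVL2, which carries the Wnt signal from the receptor to the destruction complex, had 2271, 2082 and 2315 at 18 h against 1683, 1639 and 1701 at 10 h (0.40 ± 0.07, adjusted p = 0.000681). GSK3A changed by -0.06 ± 0.13 (adjusted p = 0.832), GSK3B by 0.12 ± 0.07 (adjusted p = 0.357) and PRKCB by -0.28 ± 0.34 (adjusted p = 0.662). GSK3B had 3214, 2971 and 3081 with enzastaurin at 18 h and 2741, 3122 and 2702 at 10 h, where the times overlap. With DMSO its change was -0.31 ± 0.07, adjusted p = 0.0163, a call lost in 4 of 6 leave-one-out fits (at most 0.0721), and the difference between the treatments was 0.42 ± 0.10, adjusted p = 0.0318, a call that was lost in 8 of 12 leave-one-out fits (adjusted p at most 0.0855). PRKCD was dim, with 28.0, 164 and 48.7 at 18 h against 134, 259 and 219 at 10 h, times that overlap, and its call was lost in 4 of 6 leave-one-out fits (adjusted p at most 0.157). The call of DVL2 ended with array medians subtracted.

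Of 38 genes of the G2 phase and mitosis, 17 were called lower at 18 h. Cells that divide make these proteins in a wave before mitosis, driven by the DREAM and MuvB complexes with B-MYB and FOXM1, which act through a promoter element named CHR. All 38 members were tested and none rose, against 5.64% and 5.42% of all genes, with a median of -0.24. The change was below 0 for 35 of the 38, all 3 arrays at 18 h lay below the 3 at 10 h for 23 of them, and the range was -0.61 to 0.16. Over all genes 1545 of 12376 were separated in this direction and 26.6% in either. In DMSO cells none was called, the median was -0.04 and 8 members were separated in this direction. The difference between treatments was called for 3 members, KIF20A, PLK1 and TPX2, all in the direction of a greater fall with enzastaurin. No fall reached 2-fold.

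The CHR letters were searched in the window from 250 bases before to 50 bases after the annotated start, on both strands. TTTGAA was present in 21 of the 31 tested members with a RefSeq promoter (67.7%), and in 8 of the 14 that were called (57.1%), against 10.4% of the 10080 promoters of genes tested and 15.4% of all 27305. A match is a description of the letters, not evidence of a bound site. The stretches below show 140 bases up to the start, on the gene's own strand, from RefSeq (GRCh38.p14), with the match in capitals. They are from PLK1 at chr16:23678749-23678888 (plus strand), BUB1B at chr15:40160929-40161068 (plus), KIF11 at chr10:92592990-92593129 (plus) and PRC1 at chr15:90994536-90994675 (minus). PLK1 was named by rule, and the other 3 were chosen because they are called and hold the match.
PLK1: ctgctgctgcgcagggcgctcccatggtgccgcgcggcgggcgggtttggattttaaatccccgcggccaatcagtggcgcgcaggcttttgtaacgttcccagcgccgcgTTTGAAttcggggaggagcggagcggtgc
BUB1B: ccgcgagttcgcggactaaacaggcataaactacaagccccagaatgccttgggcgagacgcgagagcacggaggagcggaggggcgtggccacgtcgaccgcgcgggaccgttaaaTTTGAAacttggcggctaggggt
KIF11: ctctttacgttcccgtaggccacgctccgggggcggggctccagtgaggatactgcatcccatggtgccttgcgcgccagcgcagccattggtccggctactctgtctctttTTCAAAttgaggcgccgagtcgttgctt
PRC1: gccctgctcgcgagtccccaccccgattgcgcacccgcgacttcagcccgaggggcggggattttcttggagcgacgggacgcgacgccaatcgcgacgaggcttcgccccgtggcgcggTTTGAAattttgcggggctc
In PLK1, BUB1B and PRC1 the match begins 29, 23 and 20 bases before the start, and in KIF11 it lies on the other strand, 28 bases before it. The called members KIF20A, NEK2 and CCNB1 hold no such letters in this window.

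PLK1, the polo-like kinase of spindle assembly, had 3269.6, 3275 and 3099.7 in enzastaurin cells at 18 h against 4560.3, 4393 and 4731 at 10 h. In DMSO cells it had 4251, 3811 and 4134 at 18 h against 3925, 3723 and 3712 at 10 h, so that all 3 enzastaurin arrays at 18 h lay below the other 9. The change was -0.50 ± 0.06, adjusted p = 2.42e-05, and the difference from DMSO was -0.60 ± 0.09, adjusted p = 0.000808. KIF20A, a kinesin of the central spindle, had 3283, 3544 and 3851 at 18 h against 5531, 5486 and 5307 at 10 h, the largest fall of the list at -0.61 ± 0.08, adjusted p = 2.98e-05. TPX2, which activates Aurora A on the spindle, had 6158, 6838 and 6236 at 18 h against 8262, 8142 and 8375 at 10 h (-0.37 ± 0.06, adjusted p = 0.000342). BUB1B, KIF11 and PRC1, a checkpoint kinase, a spindle motor and a microtubule bundler, changed by -0.49 ± 0.09, -0.33 ± 0.06 and -0.32 ± 0.06. NEK2 and ASPM, centrosome and spindle pole proteins, changed by -0.53 ± 0.09 and -0.54 ± 0.09 with enzastaurin and by -0.25 ± 0.09 and -0.29 ± 0.09 with DMSO, where neither was called.

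Not all proliferation genes took part. CDK1 changed by -0.28 ± 0.12 (adjusted p = 0.141), TOP2A by -0.11 ± 0.08 (adjusted p = 0.4) and MKI67 by -0.15 ± 0.07 (adjusted p = 0.23), none of which passed. Of 31 genes of the G1/S transition and DNA replication, ORC1, ORC6 and CCNE1 fell and none rose, with a median of -0.03. Over all genes 5.64% fell and 5.42% rose. No fall in this list was called without enzastaurin 10 h replicate 2 or 18 h replicate 3. With DMSO 4 of the 31 fell and none rose, against 3.30% and 2.02% of all genes. The mean over probe sets of CCNE1 changed by 0.07, the other way, but its other probe set lay below the level filter, at a mean intensity of 28.7. The count of G2/M falls ranged from 13 to 18 with single arrays left out and was 22 with array medians subtracted. CCNB1 lost its call in 3 of 6 leave-one-out fits (adjusted p at most 0.0844), AURKA when only the 6 arrays were fitted, and ASPM and KIF23 with the mean over probe sets, where the other KIF23 probe set changed by 0.11 and the others of ASPM by 0.03 and -0.33.

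**Figure D4:**
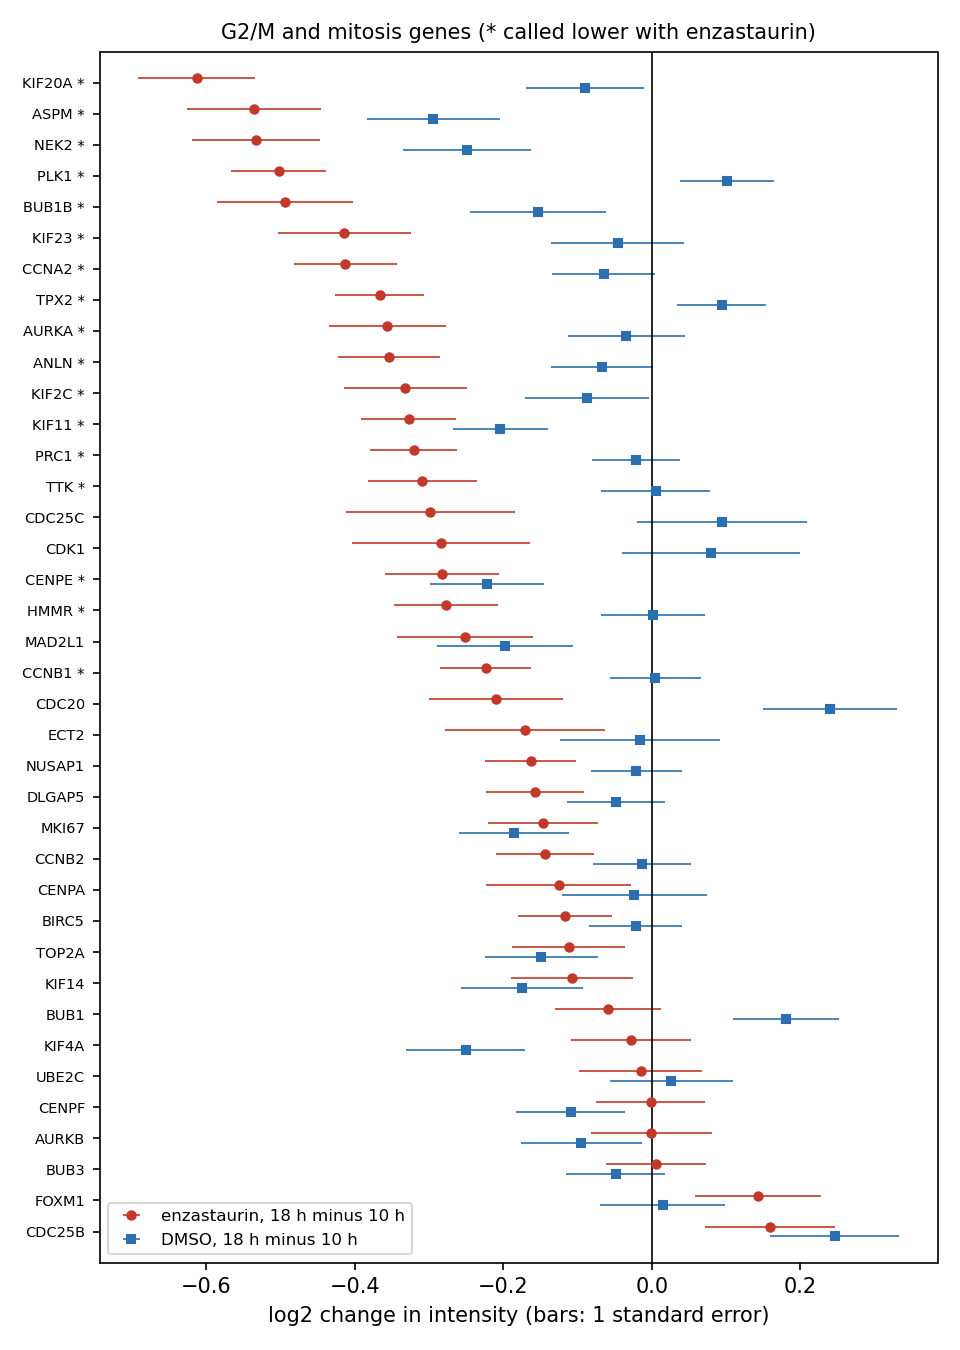
Log2 change from 10 to 18 h of the 38 G2/M and mitosis genes, in order of the change with enzastaurin (red circles), beside the change with DMSO (blue squares); bars are 1 standard error of the fit and asterisks mark the 17 genes called lower with enzastaurin. The red points run from -0.61 for KIF20A to 0.16 for CDC25B, with 35 of 38 below 0.

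Of the feedback regulators of ERK signalling and immediate early genes tested, 10 were called higher at 18 h and 17 were not called. These genes are switched on within minutes to hours of growth factor signals, and the DUSP, SPRY and PHLDA products restrain the pathway. Out of 31 members 27 were tested and none fell, with a median of 0.28, against 5.42% of all genes that rose. With DMSO 3 rose and 1 fell, and the difference was called for 3 members, all upward. PHLDA1, a pleckstrin homology protein that follows ERK activity, had 5507, 4773 and 5641 in enzastaurin cells at 18 h against 2108, 2581 and 1863 at 10 h, and 3796, 4651 and 3771 in DMSO cells at 18 h against 2991, 3098 and 3145 at 10 h. Its arrays did not overlap between times in either treatment. The change was 1.28 ± 0.11, adjusted p = 1.08e-07, against 0.40 ± 0.11 with DMSO, and the difference 0.89 ± 0.15, adjusted p = 0.00207. The DMSO call was lost in 5 of 6 leave-one-out fits (adjusted p at most 0.136).

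DUSP6, the cytoplasmic ERK phosphatase, had 838, 686 and 814 with enzastaurin at 18 h against 418, 452 and 408 at 10 h, and 656, 849 and 748 with DMSO at 18 h against 718, 658 and 739.6 at 10 h. The 10 h enzastaurin arrays were the low ones, and by 18 h they lay among the DMSO arrays (0.84 ± 0.13, adjusted p = 0.000133). IER5, an immediate early gene that acts on heat shock factor HSF1, had 5504, 5873 and 5691 with enzastaurin at 18 h against 3988, 4131 and 4123 at 10 h (0.48 ± 0.06, adjusted p = 2.37e-05). SPRY4 and SPRY2, sprouty inhibitors of receptor tyrosine kinase signalling, changed by 0.69 ± 0.16 and 0.55 ± 0.14, DUSP5, a nuclear ERK phosphatase, by 0.45 ± 0.12 and JUND by 0.36 ± 0.09. JUN (-0.09 ± 0.11) and FOSL1 (-0.11 ± 0.13) did not pass, and all 3 other JUN probe sets lay above 0, at 0.12 to 0.91. IER3, an early gene held in the NF-kB list, rose with both treatments, with 8428, 8207 and 9366 for enzastaurin at 18 h against 3955, 4131 and 4278 at 10 h (1.07 ± 0.07, adjusted p = 7.42e-09). Single arrays left out gave 7 to 11 rises in the list, and DUSP6 was not called with the mean over probe sets. DUSP5, SPRY2 and JUND lost their calls in 2 of 6 leave-one-out fits, with adjusted p reaching 0.0883, and the difference for DUSP6 in 8 of 12 leave-one-out fits (at most 0.0727).

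Most cholesterol synthesis genes tested were called higher at 18 h. SREBP2 activates these enzymes as a block when sterols in the endoplasmic reticulum are low, and INSIG1, itself a target, holds the SREBP escort back. Of 19 tested members of 26, 11 rose and none fell, with a median of 0.41, against 5.42% of all genes that rose, and 7 rose with the mean over probe sets. With DMSO 5 rose and none fell, with a median of 0.22, against 2.02% of all genes that rose. The difference between treatments was called for 1 member upward, DHCR7, and 1 downward, INSIG1, so that most of the list was not shown to change differently. DHCR7, the last enzyme of the pathway, had 1660.5, 1551 and 1820.5 in enzastaurin cells at 18 h against 908, 868 and 933 at 10 h. DMSO cells had 622, 784 and 711 at 18 h against 705, 542 and 616 at 10 h, times that overlap. Its change was 0.88 ± 0.12, adjusted p = 5.3e-05, and the difference 0.70 ± 0.17, adjusted p = 0.0311, a call lost in 8 of 12 leave-one-out fits (adjusted p at most 0.0927).

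SQLE, the squalene epoxidase, had 6683, 6622 and 7304 at 18 h against 4503, 4628 and 4391 at 10 h with enzastaurin, and 3129, 3274 and 3496 against 2144, 2397 and 2457 with DMSO. It rose with both, by 0.61 ± 0.07 and 0.50 ± 0.07, with enzastaurin cells higher at both times and no called difference (adjusted p = 0.733). INSIG1 had 7279.7, 7734 and 7192 with enzastaurin at 18 h against 4652, 5136 and 4623 at 10 h, and 2140.0, 2145 and 2014 with DMSO at 18 h against 928, 818 and 908 at 10 h. Its rise was steeper in DMSO cells, from a lower level, at 0.62 ± 0.08 with enzastaurin against 1.23 ± 0.08 with DMSO. Of its other probe sets, 1 went the same way and 1 did not, with 1.13 for enzastaurin and 1.02 for DMSO. MSMO1, STARD4 and LSS, which demethylate a sterol precursor, carry cholesterol and cyclize squalene epoxide, changed by 0.65 ± 0.10, 0.72 ± 0.11 and 0.55 ± 0.11, and HMGCS1, at the head of the pathway, by 0.55 ± 0.17. The sterol regulatory letters TCACNCCAC were in 1 of 18 promoters of tested members (5.56%) and in none of the 10 called, against 1.1% of promoters of genes tested. HMGCS1 lost its call in 5 of 6 leave-one-out fits (adjusted p at most 0.139) and LSS with the mean over probe sets.

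Of 13 tested genes of fatty acid synthesis and desaturation, 4 rose and none fell, with a median of 0.16, against 5.42% of all genes that rose, and none was called with DMSO. FADS2, the delta-6 desaturase, had 963, 769 and 1357 at 18 h against 496, 434 and 446 at 10 h (1.10 ± 0.15, adjusted p = 6.63e-05). SCD, the stearoyl-CoA desaturase, had 8177, 7915 and 8600.3 at 18 h against 5396, 5503 and 4782 at 10 h (0.66 ± 0.08, adjusted p = 1.1e-05). ACSL1, which activates fatty acids with coenzyme A, changed by 0.65 ± 0.13, and LPIN1, a phosphatidate phosphatase, by 0.37 ± 0.07. The difference from DMSO was called for SCD (0.44 ± 0.11) and ACSL1 (0.77 ± 0.18). These differences were lost in 9 and 7 of 12 leave-one-out fits (adjusted p at most 0.111 and 0.0743), and the call of LPIN1 ended with array medians subtracted.

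Part of the integrated stress response rose, mostly amino acid genes. This response slows translation and raises ATF4, which activates genes of amino acid synthesis and import through the CARE element. Of 28 tested members of 30, 8 rose and 1 fell, against 5.42% and 5.64% of all genes, with a median of 0.08 that turned to -0.05 with array medians subtracted. With DMSO 3 rose, against 2.02% of all genes, and the median was 0.10. The difference between treatments was called for 2 members downward and none upward, so that no member was shown to rise more than with DMSO. All 8 risers are enzymes or carriers of amino acids except VLDLR, a lipoprotein receptor, and PCK2, a mitochondrial PEP carboxykinase. PHGDH, the first enzyme of serine synthesis, had 6310.1, 6692 and 7939 in enzastaurin cells at 18 h against 4125, 4202 and 3881 at 10 h (0.77 ± 0.08, adjusted p = 1.94e-06). ASNS, the asparagine synthetase, had 6722, 7293 and 8514 at 18 h against 4822, 5346 and 4532 at 10 h (0.61 ± 0.09, adjusted p = 0.000181). SLC7A5 and SLC1A5, carriers of large neutral amino acids and of glutamine, changed by 0.48 ± 0.07 and 0.36 ± 0.08, and VLDLR by 0.56 ± 0.09.

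The letters TGATGNAA were in 5 of 23 promoters of tested members (21.7%) and in 2 of the 7 of genes that rose (28.6%), ASNS and SLC3A2, against 1.89% of the promoters of genes tested. The ASNS stretch is shown because this element was described there, and lies at chr7:97872409-97872548 (minus strand, GRCh38.p14, RefSeq), with the match in capitals 68 bases before the start.
ASNS: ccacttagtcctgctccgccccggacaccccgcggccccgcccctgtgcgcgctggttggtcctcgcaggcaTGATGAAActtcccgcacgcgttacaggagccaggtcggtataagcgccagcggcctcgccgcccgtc

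Several regulators in the same list were not called higher. ATF4 itself had 13142, 12726 and 14863 at 18 h against 14254, 15642 and 16556 at 10 h, a change of -0.19 ± 0.07 that did not pass (adjusted p = 0.101), and ATF3 changed by 0.06 ± 0.13 and TRIB3 by 0.27 ± 0.09, also not called. The other TRIB3 probe set, also above the level filter, changed by 0.57. SESN2, which restrains mTORC1, fell, with 1438, 1189 and 1472 at 18 h against 1664, 1889 and 1869.8 at 10 h (-0.40 ± 0.11, adjusted p = 0.0169). DDIT4, another mTORC1 inhibitor, had 6174, 5668 and 6585 with enzastaurin at 18 h and 6357, 7192 and 6317 at 10 h, times that overlap, while with DMSO it had 2375, 3061 and 3134 at 18 h against 2125, 1878 and 1559 at 10 h. DDIT4 rose with DMSO, by 0.62 ± 0.12, and the difference between treatments was -0.73 ± 0.17, adjusted p = 0.0286. Between 4 and 10 h, on arrays that share the 10 h samples with the comparison described here, enzastaurin cells changed by 1.33 for TRIB3, 1.26 for ASNS, 0.83 for SESN2 and 0.51 for DDIT4. The list had 5 rises without enzastaurin 10 h replicate 1 or 18 h replicate 3 and 4 with array medians subtracted. SESN2 lost its call in 3 of 6 leave-one-out fits (adjusted p at most 0.0932), and the difference for DDIT4 in 7 of 12 leave-one-out fits (at most 0.0858). SLC1A5 was not called with array medians subtracted, nor ASNS with the mean over probe sets. The other ASNS probe set lay below the level filter, at a mean intensity of 17.7.

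Several chaperones and sensors of the endoplasmic reticulum fell. Of 22 tested members, 6 fell and none rose, with a median of -0.08, against 5.64% of all genes that fell, and with DMSO 2 fell, against 3.30%. HERPUD1, part of the machinery that removes misfolded proteins, had 3675, 3943 and 5068 in enzastaurin cells at 4 h, 6799, 6480.4 and 5765 at 10 h and 3971, 4176 and 3424 at 18 h. All 3 arrays at 10 h lay above those at 18 h and at 4 h, which overlap. Its change from 10 to 18 h was -0.72 ± 0.13, adjusted p = 0.000655, against 0.08 ± 0.13 with DMSO, and the difference -0.80 ± 0.18, adjusted p = 0.0187. XBP1, the transcription factor of the unfolded protein response, had 2880.2, 2936 and 2692 at 18 h against 3612, 3827 and 3536 at 10 h (-0.37 ± 0.07, adjusted p = 0.00228), and the difference was -0.47 ± 0.10. HSPA5, the main ER chaperone BiP, changed by -0.29 ± 0.08, its co-chaperone DNAJB9 by -0.39 ± 0.10 and the sensor ATF6 by -0.49 ± 0.11. The list had 3 falls without enzastaurin 10 h replicate 1 or with the mean over probe sets. HSPA5 and DNAJB9 lost their calls in 2 of 6 leave-one-out fits (adjusted p at most 0.0894), the differences for HERPUD1 and XBP1 in 4 and 3 of 12 leave-one-out fits (at most 0.056 and 0.0592), and HERPUD1 and XBP1 were not called with the mean over probe sets. The only other probe sets of HERPUD1 and XBP1 lay below the level filter, at mean intensities of 18.6 and 65.7.

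Of 22 tested members of a list of death receptors and apoptosis regulators, 6 rose and none fell, with a median of 0.19, against 5.42% of all genes that rose, and with DMSO 1 fell. The difference was called for 3 members upward, FAS, FADD and BCL2L11. FAS, the CD95 receptor, had 1175, 1006 and 1101 in enzastaurin cells at 18 h against 649, 698 and 624 at 10 h, and 204, 250.8 and 231 in DMSO cells at 18 h against 314, 228 and 278 at 10 h. Enzastaurin cells were higher at both times and moved away further, by 0.72 ± 0.17, adjusted p = 0.00706, with a difference of 0.96 ± 0.24, adjusted p = 0.0352. FADD, the adaptor that links FAS to caspase 8, had 1376, 1367 and 1273 at 18 h against 1011, 815 and 825 at 10 h (0.60 ± 0.09, adjusted p = 0.000167). BCL2L11, the BH3-only protein BIM, had 2169, 2148 and 2242 at 18 h against 1700.5, 1630.5 and 1451 at 10 h (0.46 ± 0.08, adjusted p = 0.000453). TNFRSF10B, the TRAIL receptor DR5, changed by 0.32 ± 0.07. The list had 4 rises without enzastaurin 18 h replicate 3 and 2 with array medians subtracted, where BCL2L11 and TNFRSF10B were lost. The difference for FAS was lost in 9 of 12 leave-one-out fits (adjusted p at most 0.0986).

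Targets of p53 were split, with 4 rises and 4 falls among 22, against 5.42% and 5.64% of all genes, and a median of -0.003 that turned to 0.03 with the mean over probe sets and to 0.05 without enzastaurin 10 h replicate 3 or 18 h replicate 2. Leaving out single arrays gave 0 to 3 falls, with none without 18 h replicate 2, and the mean over probe sets gave 2 each way. CDKN1A, the CDK inhibitor p21, had 1165, 976 and 1129.5 in enzastaurin cells at 18 h against 587, 716 and 653 at 10 h, and 1101, 1018 and 1136 in DMSO cells at 18 h against 1094, 969.7 and 1103 at 10 h. Enzastaurin arrays lay below the DMSO arrays at 10 h and overlapped them at 18 h. The change was 0.73 ± 0.13, adjusted p = 0.000723, and the difference of 0.69 ± 0.18 missed the threshold (adjusted p = 0.0518). MDM2, the ligase that degrades p53, changed by -0.39 ± 0.11 in the other direction, a call lost in 4 of 6 leave-one-out fits (adjusted p at most 0.0984).

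Clustered histone genes, which package new DNA, rose for 3 of 6 tested members and fell for none, against 5.42% of all genes that rose, with a median of 0.55. H2BC12 had 1753, 1721 and 1620.3 at 18 h against 823, 1138 and 1063 at 10 h (0.76 ± 0.13, adjusted p = 0.000781), and H2AC6 436, 407 and 442 against 229, 236 and 226 (0.85 ± 0.17, adjusted p = 0.0023). With DMSO none was called, and the difference was called for H2BC12 (0.96 ± 0.19).

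Some lysosomal genes, 5 of 25 tested, were called higher at 18 h. TFEB and related factors drive them through the palindrome CACGTG. Against 5.42% of all genes that rose, the list had no falls and a median of 0.10 that turned to -0.03 with array medians subtracted, where 3 rose, and with DMSO none was called. CACGTG was present in 6 of 20 promoters of tested members (30%) and in 3 of the 5 of genes that rose (60%), against 10.1% of the promoters of genes tested and 7.43% of all. The stretches of these 3 genes follow, each with the palindrome in capitals, for NEU1 at chr6:31862822-31862961 (minus strand), CTSA at chr20:45891195-45891334 (plus) and ATP6V0D1 at chr16:67481158-67481297 (minus), from RefSeq (GRCh38.p14). None of the motifs searched here contains another. The TCF/LEF letters CTTTGAT were in none of the 7 promoters that could be read among 13 tested Wnt targets, against 1.53% of promoters of genes tested. No promoter was read for AXIN2, NKD1, ZNRF3, NOTUM or FZD7, and with so few promoters and so rare a match, no conclusion is drawn. The E2F letters TTTCGCGC were in 4 of 27 of the G1/S list (14.8%) and none of the 3 called lower, against 0.982%.
NEU1: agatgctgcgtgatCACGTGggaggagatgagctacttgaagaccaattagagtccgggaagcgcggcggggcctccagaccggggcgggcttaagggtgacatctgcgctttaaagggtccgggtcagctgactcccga
CTSA: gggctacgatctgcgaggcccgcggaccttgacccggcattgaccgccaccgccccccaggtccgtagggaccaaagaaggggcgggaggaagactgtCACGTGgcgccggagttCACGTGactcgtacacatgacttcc
ATP6V0D1: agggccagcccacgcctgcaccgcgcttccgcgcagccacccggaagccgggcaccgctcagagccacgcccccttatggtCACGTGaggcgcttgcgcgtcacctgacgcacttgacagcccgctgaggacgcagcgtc
CTSA holds it at 2 positions, 42 and 25 bases before the start, NEU1 at 126 and ATP6V0D1 at 59.

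NEU1 and CTSA encode the lysosomal sialidase and its protective cathepsin A, which form 1 complex. NEU1 had 1717, 1783 and 2327 in enzastaurin cells at 18 h against 1071, 781 and 1023 at 10 h, and 879, 661 and 919.8 in DMSO cells at 18 h against 788, 636 and 768 at 10 h. The 18 h enzastaurin arrays stood above the other 9, with a change of 1.01 ± 0.15, adjusted p = 0.000146 and a difference of 0.85 ± 0.21, adjusted p = 0.0378. CTSA changed by 0.44 ± 0.12, and ATP6V0D1, a subunit of the proton pump, by 0.39 ± 0.07. SQSTM1, the autophagy receptor p62, had 15064, 15489 and 18167 at 18 h against 10917, 11079 and 11411 at 10 h (0.54 ± 0.08, adjusted p = 9.85e-05). NPC1, which exports cholesterol from the lysosome, changed by 0.59 ± 0.11. The differences from DMSO for NEU1, SQSTM1 and NPC1 were lost in 6, 8 and 8 of 12 leave-one-out fits (adjusted p at most 0.133). CTSA lost its call in 3 of 6 leave-one-out fits (at most 0.113), ATP6V0D1 with medians subtracted, and SQSTM1 and NPC1 with the mean over probe sets. All other NPC1 probe sets lay below the level filter.

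Of 25 tested extracellular matrix and protease genes, 11 fell, 14 were not called and none rose, with a median of -0.28, against 5.64% of all genes that fell. With the mean over probe sets 6 fell. With DMSO 7 fell and 2 rose, against 3.30% and 2.02% of all genes, with a median of -0.22, and the difference was called for 3 members, all downward. PLAUR, the receptor that holds urokinase at the cell surface, had 2229, 1862 and 2242 in enzastaurin cells at 18 h against 3509, 3250.1 and 3697 at 10 h (-0.72 ± 0.07, adjusted p = 1.91e-06). With DMSO it had 2970.2, 3198 and 3254 at 18 h against 3702, 4129 and 4237 at 10 h, and the difference of -0.37 ± 0.11 did not pass (adjusted p = 0.0757). COL5A2, a fibrillar collagen chain, had 1444, 1159 and 1243 at 18 h against 2066, 2270.1 and 2254 at 10 h (-0.77 ± 0.09, adjusted p = 9.71e-06), and COL1A2, of type I collagen, changed by -0.76 ± 0.12. PLAU, described above, and PLAT, the tissue plasminogen activator, were the other members with a called difference. LOXL2, which crosslinks collagen, changed by -0.48 ± 0.09 with enzastaurin and 0.05 ± 0.09 with DMSO. Its difference was lost in 8 of 12 leave-one-out fits (adjusted p at most 0.0807), and its call with the mean over probe sets.

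Targets of TGF-beta and YAP went both ways, 6 up and 6 down among 27 tested, against 5.42% and 5.64% of all genes, with a median of 0.07 that turned to -0.06 with array medians subtracted. The difference from DMSO was called for 5 members downward and 1 upward. THBS1, the matricellular protein thrombospondin 1, had 2928, 2532 and 2163 in enzastaurin cells at 18 h against 5865, 6036 and 5344 at 10 h, and 5251, 6274 and 4549 in DMSO cells at 18 h against 5365, 5073 and 6009.6 at 10 h. The times overlap with DMSO and are far apart with enzastaurin (-1.18 ± 0.10, adjusted p = 2.54e-07), and the difference was -1.14 ± 0.15, adjusted p = 0.00021. AXL, a receptor tyrosine kinase, had 3623, 2946 and 3669 at 18 h against 5939.7, 5709.8 and 5433 at 10 h (-0.74 ± 0.08, adjusted p = 1.84e-06), and the difference was -0.60 ± 0.11. PMEPA1, a TGF-beta-induced inhibitor of the pathway, changed by -0.53 ± 0.08. SMAD6, an inhibitory SMAD, rose with both treatments, by 0.87 ± 0.11 with enzastaurin and 0.56 ± 0.11 with DMSO, and was not called with the mean over probe sets.

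For the standard YAP targets CCN1 and CCN2 no change was called with enzastaurin, while ANKRD1, of the same list, was called higher. CCN1 had 3766, 3332 and 3335 with enzastaurin at 18 h and 3737, 3710.3 and 3282 at 10 h, which overlap, and 9479.9, 11586 and 11008 with DMSO at 18 h against 7216, 7202 and 8387 at 10 h, where CCN1 rose. CCN2 changed by -0.17 ± 0.07 with enzastaurin and 0.23 ± 0.07 with DMSO, neither called. The differences were -0.53 ± 0.13, adjusted p = 0.0269 for CCN1 and -0.40 ± 0.10, adjusted p = 0.0442 for CCN2, lost in 8 and 9 of 12 leave-one-out fits (adjusted p at most 0.114). The 6 rises became 4 without enzastaurin 18 h replicate 3 and 3 with array medians subtracted, the 6 falls became 3 with the mean over probe sets, and 1 of 5 other THBS1 probe sets changed by 0.28, the other way.

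MYC and NF-kB are named in the title of the series. MYC had 1273, 954 and 1325 in enzastaurin cells at 18 h against 968, 955 and 826 at 10 h, times that overlap, a change of 0.35 ± 0.11, adjusted p = 0.0386 lost in 5 of 6 leave-one-out fits (adjusted p at most 0.192). In DMSO cells it had 2523, 2362 and 2412 at 18 h against 1626, 1524 and 1512 at 10 h (0.64 ± 0.11, adjusted p = 0.00116), and the difference was not called (adjusted p = 0.426). Of 25 genes that MYC activates, many in ribosome biogenesis, NCL, DDX21 and SRM fell and none rose, against 5.64% and 5.42% of all genes. The list median was -0.07. Single arrays left out gave 1 to 4 falls, NCL being lost in 5 of 6 leave-one-out fits (adjusted p at most 0.184). SRM, the spermidine synthase, had the smallest adjusted p, with 3540.2, 3506 and 3818 at 18 h against 4883, 4461 and 4839 at 10 h (-0.38 ± 0.07, adjusted p = 0.00169). Of 18 tested NF-kB targets, LIF and IER3 rose and CXCL8 fell, against 5.42% and 5.64% of all genes, with a median of 0.01 that turned to -0.07 with quantile normalization and to -0.12 with array medians subtracted. With DMSO 5 rose, against 2.02% of all genes. CXCL8, the chemokine IL-8, had 206, 109 and 237 with enzastaurin at 18 h against 348, 325 and 273 at 10 h, and 544, 465 and 354 with DMSO at 18 h against 305, 224 and 292 at 10 h. The difference of -1.48 ± 0.30, adjusted p = 0.0108 was called, while the fall with enzastaurin alone was lost in 3 of 6 leave-one-out fits (adjusted p at most 0.117).

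Glucose genes gave 1 large change. SLC2A3, the high-affinity glucose transporter GLUT3, had 1187, 1204 and 958 in enzastaurin cells at 18 h against 454, 566 and 409 at 10 h, and 380.2, 267 and 389.9 in DMSO cells at 18 h against 449, 335 and 370.0 at 10 h. All 3 enzastaurin arrays at 18 h lay above the other 9. The change was 1.21 ± 0.20, adjusted p = 0.000432 and the difference 1.36 ± 0.28, adjusted p = 0.0121. Of the other 22 tested glycolysis and uptake genes, ENO2 rose by 0.66 ± 0.14 and PFKP fell. Over all genes 5.42% rose and 5.64% fell. TXNIP and ARRDC4, arrestin-like proteins that limit glucose uptake and are induced by glucose, fell in both treatments. TXNIP had 3188, 3346 and 3314 with enzastaurin at 18 h against 4351, 4596 and 5170.3 at 10 h (-0.51 ± 0.08, adjusted p = 0.000167) and changed by -0.74 ± 0.08 with DMSO. ARRDC4 changed by -0.72 ± 0.10 and -0.74 ± 0.10, and the difference of 0.02 ± 0.14 was not called (adjusted p = 0.976). The call of ENO2 ended with array medians subtracted.

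Of 8 tested astroglial and glioma markers, SOX2 and SOX9 rose and NES, CD44 and FABP7 fell, against 5.42% and 5.64% of all genes. With the mean over probe sets none of the 3 falls was called. NES, an intermediate filament of neural stem cells, had 2581, 2960.3 and 2726 at 18 h against 3737, 3293 and 4174 at 10 h with enzastaurin (-0.43 ± 0.08, adjusted p = 0.000893), and the difference from DMSO was -0.46 ± 0.11, lost in 8 of 12 leave-one-out fits (adjusted p at most 0.0824). SOX9 lost its call in 3 of 6 (at most 0.0898). SOX2, a transcription factor of neural stem cells, had 4314, 4538 and 4101 at 18 h against 2996, 2858 and 2426 at 10 h (0.65 ± 0.08, adjusted p = 1.24e-05), while with DMSO it changed by -0.04 ± 0.08, and the difference was 0.69 ± 0.11, adjusted p = 0.00124. FABP7, a radial glia fatty acid binding protein, fell with both treatments, its change being -0.57 ± 0.10 with enzastaurin and -0.85 ± 0.10 with DMSO. Of 13 tested Notch genes 4 rose and none fell, against 5.42% of all genes that rose, and the 4 became 2 without enzastaurin 10 h replicate 2, 18 h replicate 1 or 18 h replicate 2 and with array medians subtracted. Its median of 0.12 turned to -0.01 with array medians subtracted, to -0.04 without enzastaurin 10 h replicate 2 and to -0.002 without 18 h replicate 3. HEY1, a Notch and BMP target, had 1849, 1747 and 2122 at 18 h against 922, 1002 and 973 at 10 h with enzastaurin, and 1295, 1072 and 1079 against 1414, 1496 and 1348 with DMSO. The treatments crossed, with enzastaurin cells the lower ones at 10 h and the higher ones at 18 h. The change was 0.97 ± 0.12, adjusted p = 1.39e-05 and the difference 1.27 ± 0.17, adjusted p = 0.00021. LFNG, which glycosylates Notch, changed by 0.71 ± 0.16, a call lost with the mean over probe sets, where its other probe set lay below the level filter. Of the genes whose values were drawn up for this account, 90 had a further probe set above the level filter, and for 72 of them all such probe sets changed in the same direction.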

How the data were processed

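RNA of U251 cells was read on 18 Affymetrix HG-U133 Plus 2.0 arrays, 3 for each of 6 groups. The deposited values are linear intensities per probe set, made by the authors with GCOS 1.2 per the submitters' processing notes; further steps are not given in the sources used here. Groups were taken from the labels. Of 54613 probe sets, 41091 have 1 gene symbol in the platform annotation, 1801 several and 11721 none; only the first kind was used, with symbols updated by gene ID, and each gene was represented by its brightest probe set on average over all arrays. Genes with a mean intensity over 102, the median of all probe sets, were tested, which left 12376.

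Intensities plus 16 were log2-transformed and fitted with limma 3.58.1 (R 4.3.3), with 1 mean for each of the 6 groups and a variance trend, and p-values were adjusted by Benjamini-Hochberg over all genes tested (threshold 0.05). The interaction term gave the difference between treatments. Tables and figures were made with Python 3.11.15, pandas 2.3.3 and matplotlib 3.10.9. On simulated shifts of log2 0.5, 1, 1.5 and 2 in the enzastaurin comparison over 12376 genes, with 50 genes shifted at each size, the fit recovered 50%, 92%, 92% and 96%. The simulation gave 173 calls against 1369 in the data, which makes the adjusted threshold stricter there, so the rates are not those of this comparison.

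A rule selected the 12 largest rises and 12 largest falls with enzastaurin, 6 each way with DMSO and 8 each way for the difference. It added up to 5 members a list by smallest adjusted p, with AXIN2, MYC, DDIT4, INSIG1, CCN2, FAS, GSK3A, GSK3B and PRKCB. Not all genes it selected are described. Those left out include SIMC1P1, TOMM40L, DHRS3 and RNF39, with DMSO changes of -2.12, -1.70, 1.82 and 1.74. Further list members are named as examples, chosen after their values were seen. The largest rises and falls were taken among called genes with a characterized symbol, no overlap between the arrays of the groups and a brighter mean at or above the median level of all probe sets. The comparison, the members and the lists were chosen with earlier results of these data known. The number of arrays limits the precision: the labels state no depth. Alternatives were the offset, the level filter, the scaling, the choice of probe set, the variance trend, the arrays in the fit, a replicate block and each array left out.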

Additional observations from a re-analysis of the deposited data

Results flagged for a closer look

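Each value here is the change from 10 to 18 h in enzastaurin cells minus that in DMSO cells (log2), and is given because the interaction term of the limma fit was called for the gene. A more positive change with enzastaurin was found in the Wnt list, with 1.74 for NKD1, 1.24 for BAMBI, 1.05 for AXIN2, 0.99 for DKK1, 0.95 for LEF1, 0.60 for FZD7 and 0.56 for ZNRF3. Among regulators of transcription and signalling it was 1.54 for LMO2, 1.27 for HEY1, 1.08 for RHOB, 1.08 for TSC22D1, 0.97 for SYTL2, 0.90 for RUNX2, 0.89 for PHLDA1, 0.77 for IL17RD, 0.76 for DUSP6, 0.73 for SOX4, 0.72 for IER5, 0.69 for SOX2, 0.43 for IER3 and 0.42 for GSK3B. Among genes of lipids, glucose and lysosomes it was 1.36 for SLC2A3, 0.85 for NEU1, 0.77 for ACSL1, 0.70 for DHCR7, 0.63 for NPC1, 0.44 for SCD and 0.42 for SQSTM1. Apoptosis and histone genes had 0.96 for FAS, 0.96 for H2BC12, 0.60 for BCL2L11 and 0.59 for FADD. The remaining positive differences were 1.43 for FAM222A, 1.36 for PTX3, 1.11 for SHISA2 and 0.95 for FN1, a matrix protein of the TGF-beta and YAP list. A more negative change with enzastaurin was found in other matrix, protease and TGF-beta or YAP genes, with -1.65 for PLAU, -1.14 for THBS1, -1.11 for CPA4, -0.99 for PRSS35, -0.60 for AXL, -0.53 for LOXL2, -0.53 for CCN1, -0.52 for PMEPA1 and -0.40 for CCN2. Mitosis and G1 genes had -0.70 for CCND1, -0.60 for PLK1, -0.52 for KIF20A and -0.46 for TPX2. CCND1 is also in the Wnt list, where it went against the members given above. Stress and sterol genes had -0.80 for HERPUD1, -0.74 for SESN2, -0.73 for DDIT4, -0.61 for INSIG1 and -0.47 for XBP1. The rest were -1.79 for ELFN2, -1.48 for CXCL8, -1.06 for ALPK2, -0.96 for ALDH1A3, -0.91 for PDE1C, -0.69 for SLC39A10 and -0.46 for NES. The genes listed were picked by the naming rule or after their values were seen, out of 276 with a called difference. The list does not hold the largest differences. The rule also selected PCDHAC1, GPRC5B and ASPG, with differences of 2.45, 2.11 and -2.19 at mean intensities of 154.1, 286.1 and 200.7. The listed calls were not followed under a 2-fold minimum or with every probe set tested on its own. Of the 61 listed calls, 18 were kept under all other alternatives and 43 were lost in some. Of these 43, 18 were lost in at least 1 leave-one-out fit, whether or not other alternatives also ended them.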

How the results depend on the processing

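With 3 arrays a group, the median standard error of a change was 0.134 and that of the difference 0.189. Simulated shifts of log2 0.5 were recovered in 50% of 50 genes, in a simulation with fewer calls (173) than the data. Against 1369, 658 and 276 calls for enzastaurin, DMSO and the difference, taking the mean over a gene's probe sets left 846, 345 and 130, and a 2-fold minimum left 80, 39 and 38. With array medians subtracted 1202, 437 and 65 were called, and fitting the 6 enzastaurin arrays alone gave 815 for enzastaurin; the cause of these losses was not tested, beyond the fewer arrays of that last fit. Leaving out single arrays gave 896 to 1264 calls for enzastaurin, 294 to 588 for DMSO and 181 to 286 for the difference. The lowest were without enzastaurin 18 h replicate 3 (896) and 10 h replicate 2 (903). For DMSO they were without 18 h replicate 1 (294), 10 h replicate 2 (319), 18 h replicate 3 (357) and 10 h replicate 1 (382), and for the difference without DMSO 10 h replicate 2 (181). Offsets of 1 and 64, other level filters, quantile normalization, every probe set tested on its own and a fit without a variance trend kept each count within 1.5 times its value. The mean over probe sets turned the change of PDE1C with DMSO to 0.1266 and of CCNE1 with enzastaurin to 0.0742. For CCNE1 the added probe set lay below the level filter. Calls of single genes were not followed under the 2-fold minimum or with every probe set tested on its own. Of the 158 genes with drawn-up values that were called with enzastaurin, 70 kept the call under every other alternative. The other 88 lost it in some, 50 of them in at least 1 leave-one-out fit, whether or not other alternatives also ended it. Same-numbered arrays deviated together only weakly (correlations of 0.0928, 0.0338 and 0.1857), so the numbers were not taken as pairs; a replicate block gave 1364, 658 and 271 calls.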

Other observations

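Some lists are not described above. Of 12 tested clock genes, BHLHE40, a repressor of the clock, rose with enzastaurin (log2 change 0.62 ± 0.12, adjusted p = 0.00133, against 0.18 ± 0.12 with DMSO), CLOCK rose and PER2 fell. Over all genes 5.42% rose and 5.64% fell. PER2 lost its call in 5 of 6 leave-one-out fits (adjusted p at most 0.224) and CLOCK in 1 (at most 0.0878). Among 9 tested metallothioneins and zinc carriers, the metallothioneins were not called, while 2 carriers fell, against 5.64% of all genes. SLC39A10, a zinc importer of the plasma membrane, had 421, 369 and 334 in enzastaurin cells at 18 h against 655, 634 and 547 at 10 h, and 705, 622 and 613 in DMSO cells at 18 h against 667, 602 and 662 at 10 h. Its change was -0.69 ± 0.11, adjusted p = 0.000181, and the difference of -0.69 ± 0.15, adjusted p = 0.0145, was lost with array medians subtracted. SLC30A1, a zinc exporter, changed by -0.56 ± 0.10 with enzastaurin and -0.19 ± 0.10 with DMSO, a call lost with the mean over probe sets.

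AARS1, the alanyl-tRNA synthetase, rose in both, by 0.41 ± 0.07 with enzastaurin and 0.39 ± 0.07 with DMSO. BAG3, a co-chaperone of HSP70, changed by -0.39 ± 0.07 with enzastaurin and -0.36 ± 0.07 with DMSO, falling in both. IGF1R, the receptor of insulin-like growth factors, had 1561, 1439.5 and 1329 with enzastaurin at 18 h against 2237, 2028 and 1863 at 10 h (-0.50 ± 0.09, adjusted p = 0.000808), and was not called with the mean over probe sets.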
